A study of Mus musculus with 6 samples.

Results

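The 4 teneurins, 3 FLRTs and 3 latrophilins form a set of cell-surface proteins that bind one another across the space between neurons. The 10 genes were chosen by family name, after Tenm4 had been noticed as higher in Celf2 null libraries, so they are 10 of 24391 gene symbols picked with the null against heterozygous contrast already seen. All 10 were found in the table of counts and all 10 passed the low-count filter. RNA was sequenced from hemibrains of mouse pups at postnatal day 0, 3 labelled Celf2 -/- (null, replicates 2, 4 and 10) and 3 labelled Celf2 +/- (heterozygous, replicates 6, 7 and 11). CELF2 is an RNA-binding protein. Every animal carried at least 1 mutant Celf2 allele, so the heterozygous group is not a wild type, and no strain, sex or litter is given in the sources used here. The molecule label names poly(A) RNA whereas the library kit is one for total RNA.

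Teneurins (Tenm1 to Tenm4) are large proteins with a single membrane pass that present their extracellular end to the neighbouring cell. FLRTs (Flrt1 to Flrt3) are leucine-rich repeat proteins with a fibronectin domain. Latrophilins (Adgrl1 to Adgrl3) are adhesion G protein-coupled receptors, first known as targets of a spider toxin, and they bind both teneurins and FLRTs. In the developing brain these contacts act in axon targeting, neuronal migration and synapse formation, and FLRTs also bind Unc5 guidance receptors.

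Library totals lay between 28831997 and 36531980 counts. The ribosomal RNA precursor Rn45s took 11.8% of counts in null replicate 2 and at most 1.27% elsewhere, and levels are therefore given as CPM, counts relative to a library size scaled by TMM, a method that sets aside such extremes. Celf2 itself was at 448, 390 and 331 CPM in null replicates 2, 4 and 10, against 459, 403 and 362 CPM in heterozygous replicates 6, 7 and 11. Because a total over the gene says nothing of the exons behind it, these values leave the genotype labels unchecked, and each direction given here rests on the labels. Defining brain markers were present in all libraries, with Gad1 the highest marker of inhibitory neurons, Slc1a3 of astrocytes and Olig1 of the oligodendrocyte lineage.

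All 10 genes were well expressed, with 727 to 26651 counts per library. Levels between genes were compared as CPM per kilobase of the length in the table. On that scale Adgrl1 was the most abundant, with a mean of 85.4 over the 6 libraries and a range of 75.4 to 90.2. Adgrl2 followed at 51.3 (45.5 to 61.1). These latrophilin levels did not overlap with each other or with any other member. Tenm2 (mean 23.2, range 20.3 to 29.6), Adgrl3 (21.5, 19.5 to 22.8) and Tenm3 (19.7, 16.4 to 24.2) came next and overlapped in range. Tenm4 lay below them at 12.3 (9.72 to 15.0) and did not overlap Tenm3, but its range met that of Flrt2. Flrt2 (8.84), Flrt3 (8.17) and Tenm1 (6.69) had overlapping ranges between 5.48 and 10.8. Flrt1 was the lowest at 4.71, and lay below Tenm1 in 6 of 6 libraries. Summed over each family, latrophilins were at 162 ± 11.99 in null and 155 ± 1.70 in heterozygous libraries, teneurins at 69.8 ± 6.61 and 54.2 ± 0.91, and FLRTs at 22.1 ± 0.91 and 21.4 ± 2.06 CPM per kilobase (SD, n = 3 each).

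CELF proteins bind GU-rich RNA, so the annotated 3′ UTRs of the members were read for 1 such word, TGTTTGT in DNA letters, on the transcript strand, with overlapping matches counted separately. The longest 3′ UTR of each gene was taken from GENCODE M21 on GRCm38, a build other than the mm9 named by the submitters. The word stood 8 times in 4 of the 10 members, and 31.8% of the 13180 tested genes with a 3′ UTR of at least 200 bases held it. It is shown in capitals with the bases on both sides, because it marks where this 1 word stands in the members:

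Tenm1 (chromosome X), base 190 of the UTR: tattttaatatTGTTTGTttaaactcttt

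Tenm1, base 1314: taatccacataTGTTTGTttcataatttt

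Tenm1, base 1366: ttaggaggggtTGTTTGTtccatagtcgc

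Tenm1, base 3481: ttcggcagattTGTTTGTgttaaggtcaa

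Tenm2 (chromosome 11), base 1064: aattattagtgTGTTTGTttggtccagaa

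Flrt2 (chromosome 12), base 3206: aattttccagaTGTTTGTtgatacaatat

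Flrt2, base 4026: atacattggagTGTTTGTaaaggtgtcta

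Adgrl3 (chromosome 5), base 1040: gagttatgttgTGTTTGTttaacatctct

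Positions count from the first base after the stop codon to the first base of the word. Tenm4 (chromosome 7), the member noticed as higher in null libraries, held 0 matches in a 3′ UTR of 4502 bases. Of the 1116 tested genes with a 3′ UTR within 1.25-fold of that length, 67.5% held at least 1. Tenm1 held 4 matches in 4599 bases, and 68.9% of 1060 genes of like length held at least 1. For Tenm2, with 1 match in 1379 bases, that share was 27.5%. It was 65.3% for Flrt2, with 2 matches in 4343 bases, and 43.7% for Adgrl3, with 1 in 2321 bases. Tenm3, Flrt1, Flrt3, Adgrl1 and Adgrl2 held 0, where 18.5%, 55.5%, 29.9%, 51.3% and 38.8% of genes of like length held the word. A match shows letters only and no binding was measured. Other GU-rich words, other 3′ UTRs of a gene and the rest of the transcript were not read. A member with 0 matches may therefore still hold a GU-rich element.

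Teneurins were higher in null libraries in every one of the 4 genes, and in each of them the lowest null library lay above the highest heterozygous library. Of the 10 members, those 4 separated the groups in this way and 0 separated them in the other direction. Over all 15925 genes tested, 6.21% had every null library above every heterozygous library. Since the contrast led to the choice of members, nothing is read from that count. The other 6 members overlapped between groups. In whole hemibrain RNA, more cells of a type and more RNA per cell cannot be told apart.

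Tenm4, which in mice is required for myelination and oligodendrocyte differentiation, was at 155, 160 and 144 CPM in null replicates 2, 4 and 10, against 103, 107 and 118 CPM in heterozygous replicates 6, 7 and 11. All 3 null libraries lay above all 3 heterozygous ones, and null replicate 10 and heterozygous replicate 11 were the closest pair across groups. The means were 153 ± 7.93 CPM in null and 110 ± 7.76 CPM in heterozygous libraries (SD, n = 3 each), a log2 fold change of 0.48 (SE 0.08, 95% interval 0.31 to 0.65), or 1.39-fold (edgeR fit). This difference is the one that drew attention to the family, so its value and the test results of Tenm4 are descriptions only. The edgeR adjusted p of Tenm4 was 0.213. Of all tested genes, 1.79% had a larger positive log2 fold change.

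Tenm3, a guidance molecule of topographic maps in the mouse visual pathway and hippocampus, was at 219, 266 and 253 CPM in null replicates 2, 4 and 10. In heterozygous replicates 6, 7 and 11 it was at 180, 183 and 199 CPM. The groups came closest at null replicate 2 and heterozygous replicate 11 and did not overlap. The fitted difference of 0.39 on the log2 scale (SE 0.08, 95% interval 0.21 to 0.58) did not pass edgeR's quasi-likelihood test with Benjamini-Hochberg adjustment over all genes (adjusted p = 0.368). DESeq2 gave an adjusted p of 0.0182, and over the alternative fits the adjusted p lay between 0.0182 and 0.9999.

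Tenm2, whose binding to latrophilins is known to depend on alternative splicing, was at 219, 290 and 241 CPM in null replicates 2, 4 and 10, against 215, 199 and 199 CPM in heterozygous replicates 6, 7 and 11. Null replicate 4 stood highest, and null replicate 2 was above heterozygous replicate 6 by less than the spread within either group. The log2 fold change was 0.29 (SE 0.10, edgeR adjusted p = 0.57), and 0.17 without null replicate 4. Tenm1, the X-linked member, was at 62.6, 69.2 and 55.4 CPM in null replicates 2, 4 and 10, against 49.7, 52.7 and 45.8 CPM in heterozygous replicates 6, 7 and 11. Its log2 fold change was 0.34 (SE 0.10, edgeR adjusted p = 0.527). Null replicate 4 was thus the highest library for all 4 teneurins.

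**Figure D1:**
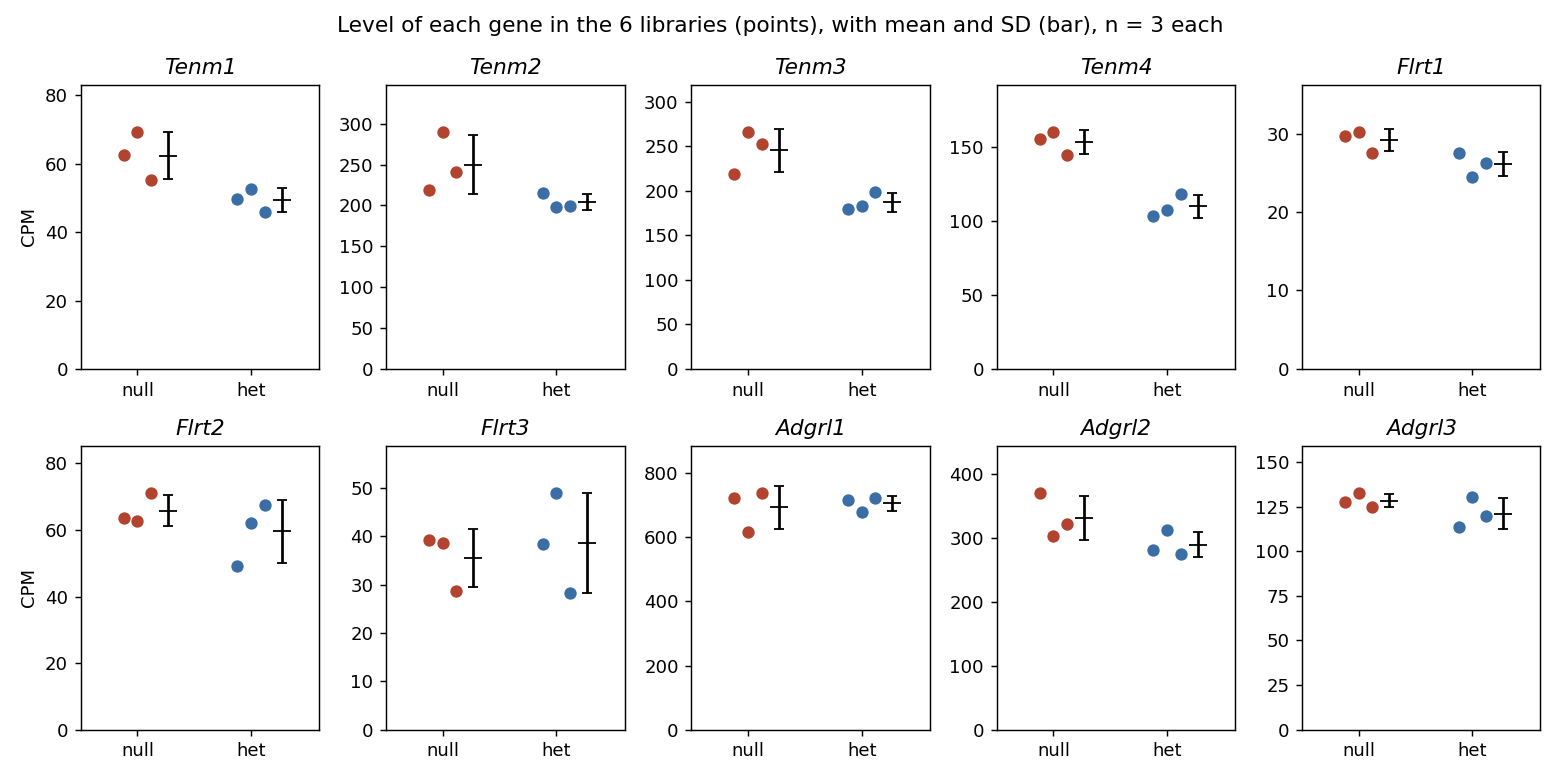
Level in CPM (y axis, from 0) of each of the 10 genes in the 3 null libraries (left, red) and the 3 heterozygous libraries (right, blue); bars give mean and SD. The Tenm4 points lie at 144 to 160 CPM in null and 103 to 118 CPM in heterozygous libraries, while the points of the FLRTs and latrophilins overlap.

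Shares within the teneurin family overlapped between the groups. Tenm4 made up 22.6%, 19.5% and 20.0% of the teneurin sum per kilobase in null replicates 2, 4 and 10, against 18.0%, 18.9% and 20.2% in heterozygous replicates 6, 7 and 11, and these shares overlapped. Tenm2 made up 36.5 ± 1.82% in null and 38.6 ± 1.92% in heterozygous libraries, Tenm3 32.1 ± 1.59% and 31.5 ± 1.34%, and Tenm1 10.7 ± 0.93% and 10.9 ± 0.94% (SD, n = 3 each). The summed teneurin level was 64.4, 77.1 and 67.9 CPM per kilobase in null replicates 2, 4 and 10, against 54.0, 53.3 and 55.1 in heterozygous replicates 6, 7 and 11. The null libraries were all higher, and more spread.

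FLRTs showed no common pattern between the groups. Flrt2, which in mouse cortex repels migrating neurons that carry Unc5d, was at 63.7, 62.6 and 71.1 CPM in null replicates 2, 4 and 10, against 49.2, 62.2 and 67.5 CPM in heterozygous replicates 6, 7 and 11. Heterozygous replicate 6 alone lay apart, and the log2 fold change of 0.14 (SE 0.12, edgeR adjusted p = 0.878) was 0.02 without it, 0.08 without null replicate 10 and 0.24 without heterozygous replicate 11. Flrt1 was at 29.7, 30.2 and 27.5 CPM in null replicates 2, 4 and 10, against 27.6, 24.5 and 26.3 CPM in heterozygous replicates 6, 7 and 11. Its log2 fold change was 0.16 (SE 0.10, edgeR adjusted p = 0.832), and null replicate 10 and heterozygous replicate 6 were within 0.1 CPM of each other.

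Flrt3, a latrophilin ligand at excitatory synapses, varied most within the groups. It was at 39.2, 38.7 and 28.7 CPM in null replicates 2, 4 and 10, against 38.4, 49.0 and 28.4 CPM in heterozygous replicates 6, 7 and 11. The lowest library of each group, null replicate 10 and heterozygous replicate 11, had nearly equal levels. Null libraries were at -0.12 relative to heterozygous ones on the log2 scale (SE 0.19, 95% interval -0.55 to 0.32), with an edgeR adjusted p of 0.955. Without heterozygous replicate 7 the value was 0.09, without null replicate 10 it was 0.02, and without heterozygous replicate 11 it was -0.30. The within-group SD of log2 CPM was 0.33 for Flrt3 and 0.08 for Adgrl3, the lowest of the members, beside a median of 0.12 over 10426 genes with a mean above 10 CPM.

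Latrophilins, the receptors, were near level between the groups. Adgrl1 was at 724, 618 and 738 CPM in null replicates 2, 4 and 10, against 717, 678 and 722 CPM in heterozygous replicates 6, 7 and 11. The difference was -0.03 on the log2 scale (95% interval -0.19 to 0.14), with an edgeR adjusted p of 0.974, and 0.05 without null replicate 4. Adgrl3, which in mice acts with Adgrl2 in choosing the input layers of hippocampal neurons, was at 128, 133 and 125 CPM in null replicates 2, 4 and 10, against 113, 130 and 120 CPM in heterozygous replicates 6, 7 and 11 (log2 fold change 0.08, 95% interval -0.08 to 0.25, edgeR adjusted p = 0.888). That value was 0.04 without heterozygous replicate 6 and 0.14 without heterozygous replicate 7. Adgrl2 was at 370, 303 and 321 CPM in null replicates 2, 4 and 10. In heterozygous replicates 6, 7 and 11 it was at 281, 312 and 275 CPM, so the groups overlapped, and the log2 fold change was 0.19 (95% interval 0.00 to 0.39, edgeR adjusted p = 0.704). It was 0.11 without null replicate 2.

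**Figure D2:**
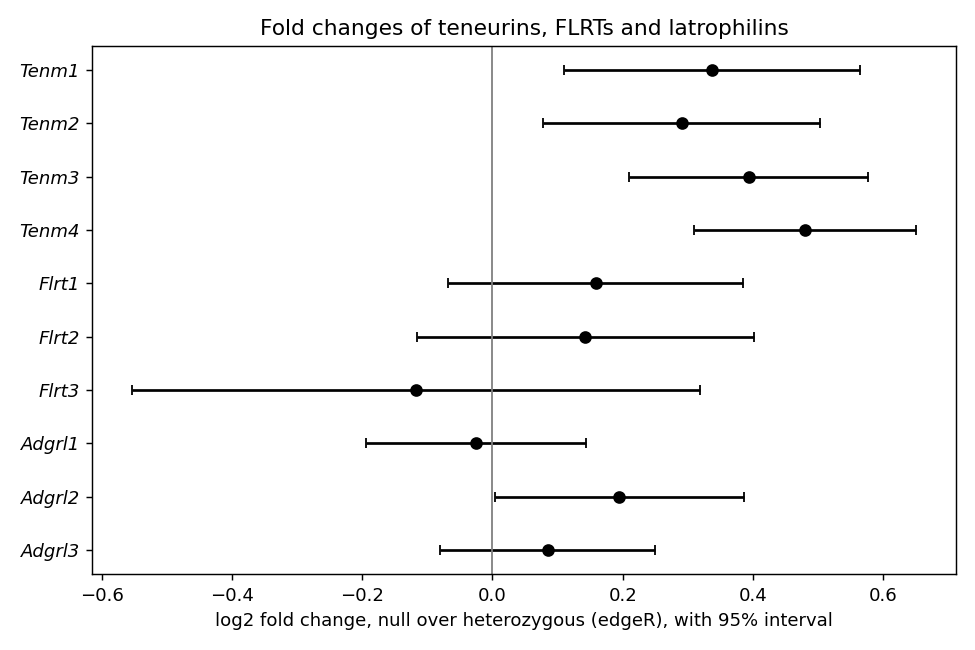
Log2 fold change of each gene, null over heterozygous, from the edgeR fit (points) with its 95% interval (bars). The 4 teneurins lie between 0.29 and 0.48, and the intervals of all FLRTs, Adgrl1 and Adgrl3 include 0.

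By edgeR's quasi-likelihood test 0 of the 10 members were called at an adjusted p of 0.05, where 1 of 15925 genes (0.00628%) was called. At an unadjusted p under 0.05 there were 5 of 10 members, the 4 teneurins and Adgrl2, against 7.06% of all genes tested. DESeq2 called 2 of 10 members, Tenm3 and Tenm4, both higher, against 0.358% of all genes tested. The rule that formed the group used this contrast, so these shares and the calls of Tenm4 are descriptions. Among the members 8 fold changes were positive and 2 negative. Their median log2 fold change was 0.18, against -0.001 over all genes tested, and the medians of the families were 0.37 for teneurins, 0.14 for FLRTs and 0.08 for latrophilins.

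**Figure D3:**
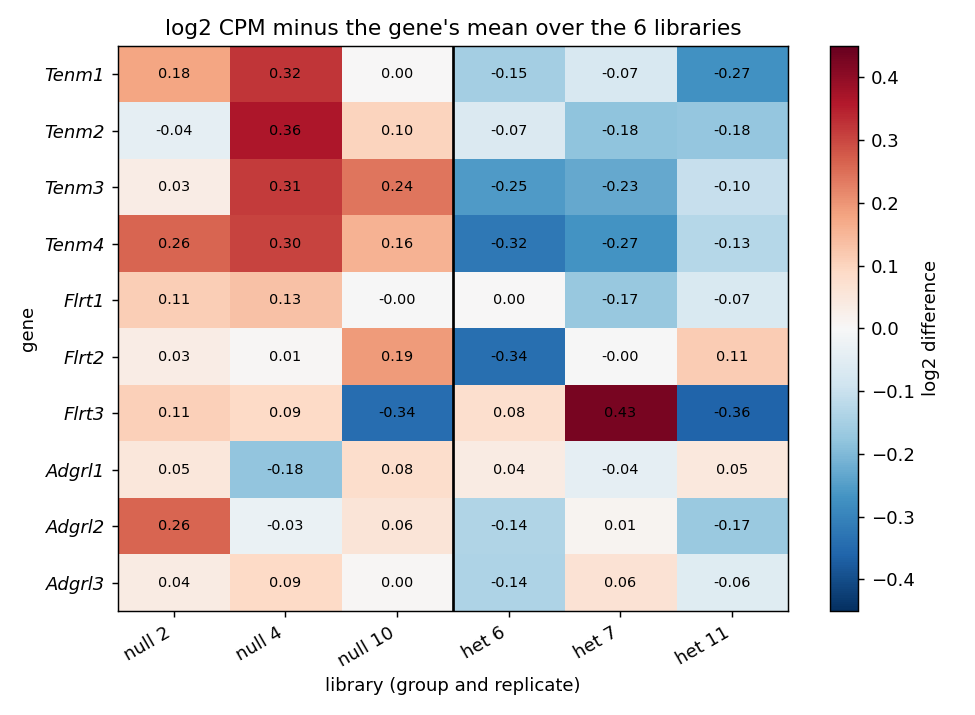
Log2 CPM of each gene (rows) in each library (columns, null left and heterozygous right of the line) minus the gene's mean over the 6 libraries, in log2 units. Null replicate 4 holds the highest level of 6 genes and the lowest of Adgrl1, and Flrt3 is low in null replicate 10 and heterozygous replicate 11.

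Ratios of raw counts within a library do not depend on scaling between libraries. Tenm4 had 0.214, 0.259 and 0.195 counts per Adgrl1 count in null replicates 2, 4 and 10, against 0.144, 0.158 and 0.164 in heterozygous replicates 6, 7 and 11. The null ratios were all higher, and Adgrl1 itself had its lowest CPM in null replicate 4. Tenm3 per Adgrl1 was likewise apart, at 0.302, 0.431 and 0.342 in null and 0.251, 0.269 and 0.276 in heterozygous libraries. Tenm2 per Adgrl1 was apart only narrowly, with 0.3021 in null replicate 2 and 0.2997 in heterozygous replicate 6. Tenm1 per Adgrl1 overlapped, with 0.0750 in null replicate 10 and 0.0777 in heterozygous replicate 7. The share of all genes apart on such a ratio was not computed. Tenm4 per Tenm3, at 0.708, 0.601 and 0.571 in null and 0.576, 0.587 and 0.594 in heterozygous libraries, overlapped. Tenm4 per Tenm2 overlapped too, with 0.552 in null replicate 4 and 0.594 in heterozygous replicate 11.

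Telencephalon markers, like the teneurins, were higher in every null library than in any heterozygous one. Their summed level over 10 genes was 1703, 1471 and 1473 CPM in null replicates 2, 4 and 10, against 1235, 1165 and 1125 CPM in heterozygous replicates 6, 7 and 11, with all 10 fold changes positive and 0 called by edgeR. Within the null group the sum was highest in replicate 2 and nearly equal in replicates 4 and 10, whereas all 4 teneurins were highest in replicate 4. This list was drawn up with such a difference known from earlier results. Divided by that sum, Tenm4 was at 91.0, 109 and 97.9 CPM per 1000 CPM of markers in null replicates 2, 4 and 10, against 83.7, 92.0 and 105 in heterozygous replicates 6, 7 and 11. On this scale, chosen after the data were seen, all 4 teneurins overlapped between the groups. The log2 differences were 0.09 for Tenm4, -0.006 for Tenm3, -0.11 for Tenm2 and -0.06 for Tenm1, so 3 of the 4 were negative. On the same scale 4 members, Flrt1, Adgrl1, Adgrl2 and Adgrl3, were lower in all null libraries than in any heterozygous one, with log2 differences of -0.24, -0.43, -0.20 and -0.31. Flrt2 and Flrt3 overlapped, at -0.24 and -0.49. The marker sum was itself higher in all null libraries, so a gene of equal CPM in both groups comes out lower on this scale. Adgrl1, at -0.03 by the edgeR fit, came out at -0.43. The share of all tested genes that are apart on this scale was not computed, so nothing is read from the 4 members.

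Other tissue markers differed less evenly. The sum of 11 hindbrain and cord markers was 4.65 to 14.9 CPM in null and 13.5 to 168 CPM in heterozygous libraries. Most of these markers were Hox genes, and the highest sum was in heterozygous replicate 7. Among those that passed the low-count filter, 1 fold change was positive and 7 negative, and the rest were not tested. With the mean level of 6 Hox genes as a covariate the log2 fold change was 0.44 for Tenm4, 0.40 for Tenm3, 0.36 for Tenm2 and 0.50 for Tenm1. The sum of 6 midbrain markers was 7.37 to 40.4 CPM in null and 38.0 to 51.1 CPM in heterozygous libraries, with 0 positive and 6 negative fold changes. That of 10 oligodendrocyte lineage markers was 410 to 512 CPM in null and 451 to 549 CPM in heterozygous libraries, with 1 positive and 9 negative. Astrocyte markers summed to 809 to 977 CPM in null and 961 to 1046 CPM in heterozygous libraries, with 8 of 8 fold changes negative. Sums for inhibitory neurons were 579 to 649 CPM in null and 582 to 642 CPM in heterozygous libraries, for excitatory neurons 248 to 305 and 292 to 305 CPM, for thalamus 255 to 315 and 191 to 291 CPM, and for radial glia 1034 to 1280 and 1008 to 1297 CPM. Sums for microglia, endothelium, meninges and choroid plexus overlapped between the groups, and positive fold changes numbered 3 of 6, 3 of 6, 1 of 5 and 5 of 5 in those lists. Of 13 marker lists, 0 had a gene called or a gene at 0 in every library. The part of region or cell makeup in the teneurin levels was not tested beyond these values.

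**Figure D4:**
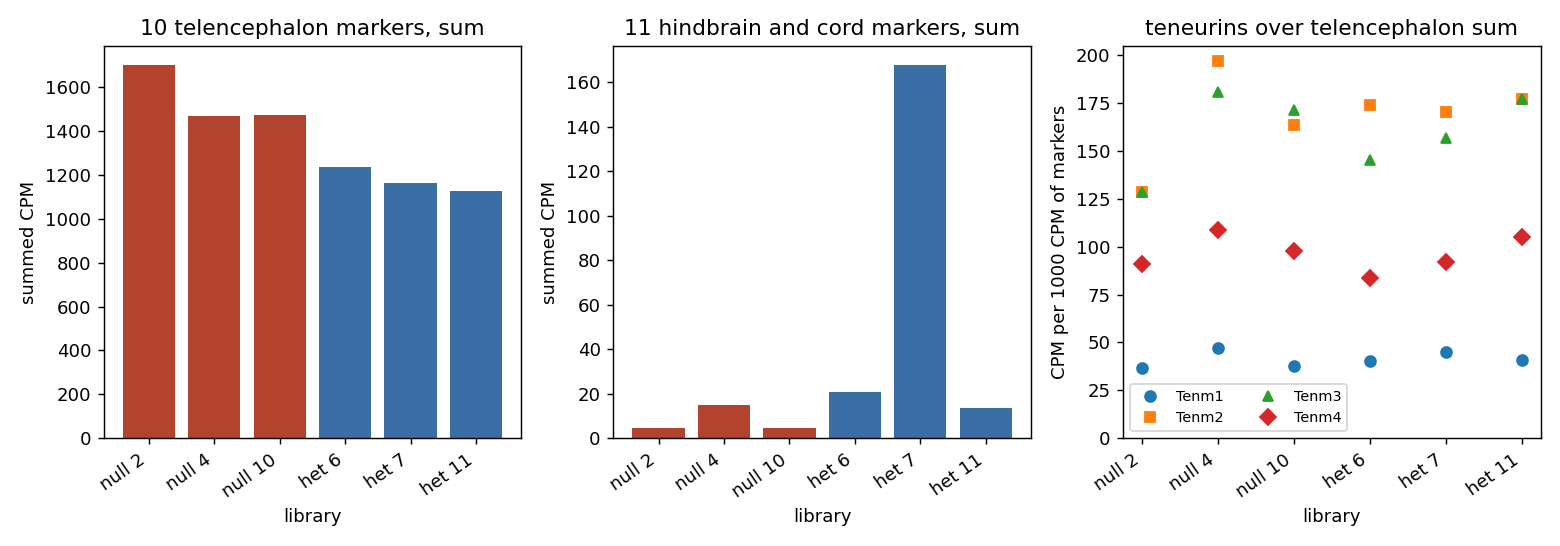
Summed CPM of 10 telencephalon markers (left) and 11 hindbrain and cord markers (middle) in each library, null in red and heterozygous in blue, and CPM of each teneurin per 1000 CPM of telencephalon markers (right). The telencephalon sums are 1471 to 1703 CPM in null and 1125 to 1235 CPM in heterozygous libraries, and the teneurin ratios overlap between groups.

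The sex of the pups is not given in the labels. Null replicates 4 and 10 and heterozygous replicate 7 held 0 counts of Y-linked Ddx3y and 1140 to 1350 CPM of Xist. Within those libraries the log2 difference of Tenm4, null minus heterozygous, was 0.50, and within the libraries with Ddx3y counts it was 0.49. The same differences were 0.51 and 0.21 for Tenm3, 0.41 and 0.08 for Tenm2, and 0.23 and 0.39 for Tenm1. X-linked Tenm1 averaged 59.1 CPM in the libraries without Ddx3y and 52.7 CPM in those with it. The autosomal teneurins were also higher without it, at 243 and 210.9 CPM for Tenm2, 233.8 and 199.3 CPM for Tenm3, and 137.1 and 125.5 CPM for Tenm4. Null replicates 4 and 10 lack Ddx3y and only null replicate 2 has it, so these averages mix genotype with sex. Null replicate 10 and heterozygous replicate 11 resembled each other in several genes, which was seen in the data and is not given by the labels. Between them the difference of Tenm4 was 0.29, and among the other libraries it was 0.58. With 1 or 2 libraries a side, no test was made of these differences.

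The members' partners were read from lists of 33 genes, all of them tested, and 0 were called by edgeR in either direction, with 20 positive and 13 negative fold changes (median 0.04) and 7 at an unadjusted p under 0.05. DESeq2 called 2, both higher. Over all genes tested, 49.7% of fold changes were positive, 7.06% were at an unadjusted p under 0.05 and DESeq2 called 0.358%. Among 9 other receptors that bind FLRTs, Fgfr1, a fibroblast growth factor receptor, was at 112 ± 4.70 CPM in null and 86.1 ± 5.29 CPM in heterozygous libraries (log2 fold change 0.38, edgeR adjusted p = 0.368, DESeq2 adjusted p = 0.0103). Robo1, a Slit receptor, was at 298, 292 and 226 CPM in null replicates 2, 4 and 10, against 195, 223 and 182 CPM in heterozygous replicates 6, 7 and 11 (log2 fold change 0.45, edgeR adjusted p = 0.482, DESeq2 adjusted p = 0.0496). Fgfr3 had the smallest p among the negative ones (-0.17, edgeR adjusted p = 0.828). Among the Unc5 receptors of repulsive guidance, Unc5a was at 0.30 and Unc5b at 0.33, whereas Unc5c was at -0.04 and Unc5d, the Flrt2 partner, at 0.00 on the log2 scale.

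All 4 other ligands of latrophilins had small negative fold changes. Nrxn2 and Nrxn3, which encode presynaptic neurexins, had log2 fold changes of -0.01 and -0.12, and the contactin Cntn6 was at -0.06, the smallest edgeR adjusted p being 0.81. Of 6 cytoplasmic partners of latrophilins, Shank2, a postsynaptic scaffold, was at 0.22 (edgeR adjusted p = 0.659) and the G protein subunit Gna13 at -0.12 (0.858). Of 4 teneurin partners, 3 had positive fold changes and 0 were called by edgeR. Ptk2, the focal adhesion kinase, was at 0.21, Dag1, which encodes dystroglycan, at 0.06, and Mbd1 at -0.02 (0.99). Among 10 other adhesion G protein-coupled receptors, Celsr1, a planar polarity cadherin, was at 0.45 (edgeR adjusted p = 0.588) and Adgra1 at -0.19 (0.826). Adgrl4, the latrophilin relative of blood vessels, was at 17.4 ± 3.63 CPM in null and 19.3 ± 1.11 CPM in heterozygous libraries (SD, n = 3 each).

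**Figure D5:**
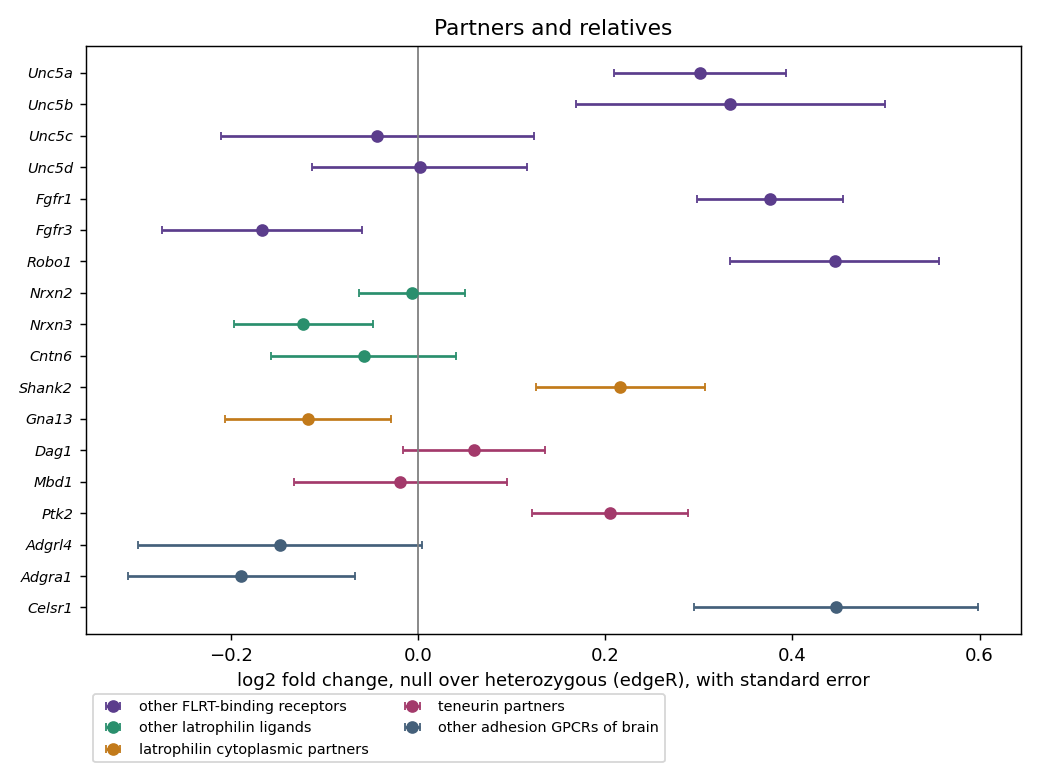
Log2 fold change, null over heterozygous, with standard error, for the partners and relatives described in the text, grouped by list. Robo1 and Celsr1 (0.45 each) and Fgfr1 (0.38) lie highest, Nrxn3 lies at -0.12 and Nrxn2 at -0.01, and 0 were called by edgeR.

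The genes whose pattern lay nearest to Tenm4 were sought among 11957 others with a mean of at least 5 CPM, by the root mean square difference of centred log2 CPM over the 6 libraries. They were Nup93, a nuclear pore protein (0.054), Lrrc8c, a subunit of volume-regulated anion channels (0.054), the protocadherin Pcdhgb1 (0.057), Brwd3 (0.062) and Arhgap12, a GTPase-activating protein (0.065). Nup93 was at 53.4, 50.6 and 50.2 CPM in null replicates 2, 4 and 10, against 35.2, 37.4 and 42.1 CPM in heterozygous replicates 6, 7 and 11. Of the other members, Tenm3 was nearest, at 0.11 and in place 51 of that order, followed by Tenm1 at 0.14 (place 216) and Tenm2 at 0.17 (place 560). Flrt3 was the farthest at 0.41.

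Several members share their place in the genome with another gene, and the strand setting of the counting is not given in the sources used here. Flrt1 lies inside Macrod1 and Flrt3 inside Macrod2, each on the opposite strand with 0 shared exon bases in GENCODE M21. Macrod1 was at 4.90 to 7.10 CPM and Macrod2 at 36.8 to 44.0 CPM over the 6 libraries, with log2 fold changes of -0.14 and 0.08. Tenm1 shares 1465 exon bases with Sh2d1a on the other strand, which had 0 to 3 counts per library. Tenm4 hosts the microRNA gene Mir708 in its own orientation, with 1 or 2 counts per library, and shares 988 exon bases with C230038L03Rik, which was not analysed here. On the opposite strand, Adgrl2, Adgrl3 and Tenm3 share 202, 1582 and 114 exon bases with 1 gene each, and Adgrl1 shares 1107, 143 and 93 exon bases with 3 genes.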

How the data were processed

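The authors deposited whole-number read counts per gene symbol and 1 length in bases per symbol, per the file headers; 6 columns were matched to samples by title and 0 belonged to other samples. TRIzol extraction and a stranded kit for total RNA are given per the labels' protocols. Among the tools, the submitters' processing notes name STAR, cutadapt, bedtools, Picard, CASAVA and MACS2, none with a role, and as builds hg19 and mm9; the counter is not given in the sources used here. Genes were kept by filterByExpr (15925 of 24391) and tested with the quasi-likelihood test of edgeR 4.0.16 (R 4.3.3; TMM, robust dispersion, Benjamini-Hochberg at 0.05) over all genes; the SE is the log2 fold change over the square root of F. The edgeR fit was checked on simulated counts for the sign and size of fold changes larger than that of any member. The simulated libraries held no difference in region or batch. The sources used here do not say whether replicates share a litter or preparation. The p-values take the samples as independent, which could not be checked.

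The members, lists and rules were chosen with earlier results of these data known. Named genes were all members, the smallest p in each direction of each partner list, the 5 genes nearest Tenm4, overlapping genes and the highest marker of each list; Unc5, neurexin, Ptk2, Dag1, Cntn6 and Adgrl4 values were added after they were seen, and Robo1 for its DESeq2 call; some genes under these rules are not reported here. Alternatives were other scalings and filters, DESeq2 1.42.0, limma-voom (limma 3.58.1), covariates and leaving out each library.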

Additional observations from a re-analysis of the deposited data

How the results depend on the processing

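The count of genes called, 1 by edgeR, was 0 with DESeq2 size factors, a CPM minimum, no robust dispersion, the Hox covariate, Rn45s removed or limma-voom, 2 with upper-quartile factors or library size alone, 3 with no low-count filter, 10 with the Ddx3y covariate, 57 with the DESeq2 test and 11 with a term for the pair of replicates 10 and 11. Without single libraries it was 0 to 4. At an unadjusted p under 0.05 these fits counted 460 to 1762 genes. Members called, 0 by edgeR, were 2 with the DESeq2 test and 1, Tenm4, with that term; partner genes called were 2 with the DESeq2 test. Both were 0 in the other fits, including those without single libraries (0 to 0). The log2 fold change of Tenm4 lay between 0.39 (library size alone) and 0.54 over 18 fits, and between 0.44 and 0.54 without single libraries. Relative to telencephalon markers it was 0.085. Tenm1, Tenm2 and Tenm3 were negative on that scale (-0.06, -0.11 and -0.006), as were Flrt1, Flrt2, Adgrl2 and Adgrl3, all positive by edgeR. The marker sum was itself higher in all null libraries, which lowers every null value on that scale. That scale and the term were chosen after the data were seen, and the cause was not tested. Fold changes of all 4 teneurins were positive in the 18 fits, which leave out that scale, whereas Flrt3 changed sign in 3, Adgrl1 in 2 and Adgrl3 in 1. With library size alone the median over all genes was -0.09. Of 180 refitted member values, 6 moved by more than the within-group SD. The Hox covariate moved Tenm1, Flrt3, Adgrl1 and Adgrl3, and library size alone moved Flrt1 and Adgrl3. The 180 values leave out the scale relative to telencephalon markers, on which every member, Tenm4 included, moved by more than that SD. No paired analysis was possible because the sources used here do not say which pups share a litter or preparation.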

Other observations

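The ratio of Flrt3 to Flrt2 overlapped between the groups and was lowest in 1 library of each. Counts of Flrt3 per Flrt2 count were 0.616, 0.618 and 0.403 in null replicates 2, 4 and 10, against 0.780, 0.787 and 0.420 in heterozygous replicates 6, 7 and 11. The lowest ratios, 0.403 and 0.420, came from null replicate 10 and heterozygous replicate 11. Both between those libraries and among the other 4, the null values were the lower ones. This split was made after the data were seen and was not tested. Flrt3 made up 30.04% and 30.9% of the FLRT sum per kilobase in those libraries and 37.9% to 45.5% in the others. Within the latrophilins, Adgrl1 made up 52.4 ± 2.06% in null and 55.7 ± 2.46% in heterozygous libraries, and Adgrl2 33.8 ± 1.72% and 30.9 ± 1.78% (SD, n = 3 each). These shares were not tested.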
